A study of Mus musculus with 2 samples.

Results

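The isolated SMRT sites of mouse liver were the autosomal regions that stood alone, with no other SMRT region within 200 kb on either side. Peaks of the lists labelled ZT10 and ZT22 were pooled, peaks sharing at least 1 bp were merged, and the distance was taken from edge to edge. Of 30845 merged regions, 30656 lay on the 19 autosomes, and 513 of these (1.67%) were isolated. They held 331 ZT10 peaks and 398 ZT22 peaks. The regions were chosen by the listed peak positions of both libraries, so their distance from neighbours is a description and not a finding.

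Male C57BL/6 mice aged 12 weeks, with free access to food, no treatment and no stated genetic change, gave the livers of both groups. An Abcam antibody against SMRT was used for each immunoprecipitation. The groups were ZT10 (5 pm, late in the light phase) and ZT22 (5 am, late in the dark phase), where Zeitgeber time counts hours from lights on. Each was 1 library pooled from 4 mice, so no value has a replicate check and no p-value was computed. The lists held 21370 ZT10 and 24078 ZT22 peaks of 200 bp each, and the reads behind a peak are unknown. The deposited name of the ZT10 list and the names given to peaks inside it read 5 am, against the label. Those of the ZT22 list read 5 pm, also against the label. Every direction between times follows the labels here, and would be the opposite if these names hold.

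SMRT is a large corepressor protein without a DNA-binding domain of its own. Nuclear receptors that have no activating hormone bound, among them the thyroid hormone and retinoic acid receptors, hold it on DNA. It binds and activates the histone deacetylase HDAC3, and the complex is known for lowering transcription of nearby genes. In liver such corepressor complexes are known for their part in lipid metabolism and in the daily clock, where the receptor REV-ERB tethers them.

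Each peak carries a score that is the authors' own. The scale of this score is unknown, so it serves to rank peaks within a list, and both lists end at 1.0. The genes near these regions and the DNA sequence under them were not analysed here. Coordinates are 1-based in build mm8.

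The first and second strongest isolated regions were present in both lists at high rank. The first lay on chromosome 10 at 121454984 to 121455186, with a score of 9.2 at ZT10 (rank 38) and 9.3 at ZT22 (rank 28). Its neighbours were 278 kb and 262 kb away. The second lay on chromosome 18 at 51587075 to 51587288 and scored 9.2 at ZT10 (rank 40) and 8.6 at ZT22 (rank 50). Neighbours stood 237 kb to its left and 1004 kb to its right. Of the 10 isolated regions with the highest score, 9 were in both lists. A partner was usual for strong peaks that were not isolated too. At a score of 3 or more, 96.3% of such ZT10 peaks overlapped a ZT22 peak.

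The third differed between the lists. On chromosome 3 at 5843673 to 5843872, a single ZT10 peak scored 8.6 and ranked 55 of its list. The ZT22 list had no peak there, and its nearest one was 284 kb away. No other isolated region called in 1 list came near this score: the next ZT10-only region scored 3.0, and so did the highest ZT22-only region. Outside the isolated regions, autosomal peaks of 1 list reached 13.7 at ZT10 and 11.8 at ZT22.

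The most remote of the strong regions lay on chromosome 10 at 55795169 to 55795375, with gaps of 2031 kb and 1392 kb on its sides. It scored 6.0 at ZT10 (rank 342) and 7.6 at ZT22 (rank 95), and no other region lay within 1 Mb of it. A second remote region, on chromosome 16 at 42084396 to 42084600, scored 4.2 (rank 1210) and 5.7 (rank 341), with gaps of 922 kb and 710 kb. One on chromosome 7 at 58267073 to 58267289 scored 4.1 and 4.9, with gaps of 838 kb and 829 kb. In these 3 regions the ZT22 peak had the higher score and the better rank. That does not extend to the isolated regions as a set. Across the 214 shared ones with a single peak of each list, the ZT10 score was higher in 97 and the ZT22 score in 97.

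The other 4 of these 10 lay less far from a neighbour. On chromosome 16 at 57312901 to 57313100 both lists called the identical 200 bp, with scores of 6.0 at ZT10 and 5.4 at ZT22. The region on chromosome 9 at 86819669 to 86819882 scored 5.5 and 5.3, which are ranks 460 and 467. That on chromosome 3 at 31584908 to 31585107, again called at the identical position, scored 4.5 and 4.8. On chromosome 19 at 47935898 to 47936106 the scores were 3.8 (rank 1641) and 4.7 (rank 686).

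**Figure D1:**
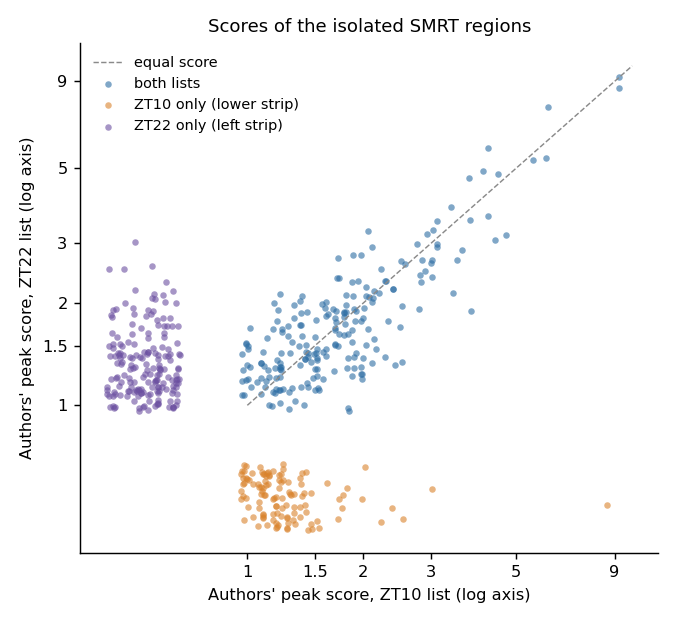
Scores of the isolated regions, with the ZT10 score on the x axis and the ZT22 score on the y axis, both log axes, and small random shifts that separate equal values. Regions of both lists scatter around the line of equal scores, and regions of 1 list fill the strips at the lower edge (ZT10) and the left edge (ZT22), where the single ZT10 peak with a score of 8.6 stands far to the right.

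Isolated regions were called in both lists somewhat less often than regions overall. Of the 513, 215 (41.9%, exact Clopper-Pearson 95% interval 37.6 to 46.3) were in both lists, against 47.3% of all autosomal regions. Those of ZT10 alone numbered 116 (22.6%, 19.1 to 26.5), against 21.9% of all. Those of ZT22 alone numbered 182 (35.5%, 31.3 to 39.8), against 30.8%. Among isolated regions of 1 list, ZT10 made up 38.9% (33.4 to 44.7), against 41.5% in the other autosomal regions, a difference within counting error. All such intervals reflect the number of regions counted and leave out any spread between mice.

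Isolated peaks were mostly weak. Their median score was 1.4 in each list, with a range of 1.0 to 9.2 at ZT10 and 1.0 to 9.3 at ZT22. The other autosomal peaks had medians of 1.7 at ZT10 and 1.6 at ZT22. A score of 2 or more in either list was reached by 105 isolated regions (20.5%, 17.1 to 24.2), against 34.8% of all autosomal regions. For a score of 3 or more the count was 31 (6.04%, 4.14 to 8.47), against 12.8%. Of the 1000 strongest peaks of each list, those on autosomes included 9 isolated ZT10 peaks (0.905%, 0.414 to 1.71) and 9 isolated ZT22 peaks (0.903%, 0.414 to 1.71), against 1.56% and 1.66% of all autosomal peaks, so these counts were within counting error of the plain share. The lowest listed score, 1.0, was that of 35 isolated ZT10 peaks (10.6%, 7.48 to 14.4), against 4.96% of other ZT10 peaks, and of 31 isolated ZT22 peaks (7.79%, 5.35 to 10.9), against 4.45%.

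The lower scores were seen within the shared regions as well. For isolated ZT10 peaks with a partner in the other list the median score was 1.7, against 2.0 for other ZT10 peaks with one. For ZT22 it was 1.6 against 1.9. Without a partner the medians were 1.2 against 1.3 at ZT10 and 1.3 against 1.4 at ZT22.

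At like score, the partner share of other peaks lay within the interval of the isolated peaks in all of the score classes of both lists except 1. Among ZT10 peaks scoring 1.5 to below 2, 65 of 76 isolated peaks (85.5%, 75.6 to 92.5) overlapped a ZT22 peak, against 70.9% (69.6 to 72.1) of other peaks. Below 1.5 the ZT10 shares were 45.6% (38.1 to 53.1) and 41.2%. From 2 to below 3 they were 89.6% (77.3 to 96.5) and 89.2%, and from 3 upward 92.6% (75.7 to 99.1) and 96.3%. The ZT22 classes below 3 gave 40.9%, 62.0% and 77.2% for isolated peaks and 39.7%, 62.3% and 78.4% for other peaks. From 3 upward, 20 of 21 isolated ZT22 peaks (95.2%, 76.2 to 99.9) had a partner.

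Over all scores, 65.0% of isolated ZT10 peaks (59.5 to 70.1) and 54.3% of isolated ZT22 peaks (49.2 to 59.2) had a partner, against 68.4% and 60.6% of all autosomal peaks. With the other peaks weighted to the score classes of the isolated ones, their shares became 59.5% at ZT10 and 53.8% at ZT22. For ZT10, 68.4% lay within the interval of the isolated peaks, and the weighted share, 59.48%, lay just below its lower limit of 59.55%. For ZT22, 53.8% lay within the interval and 60.6% above it.

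**Figure D2:**
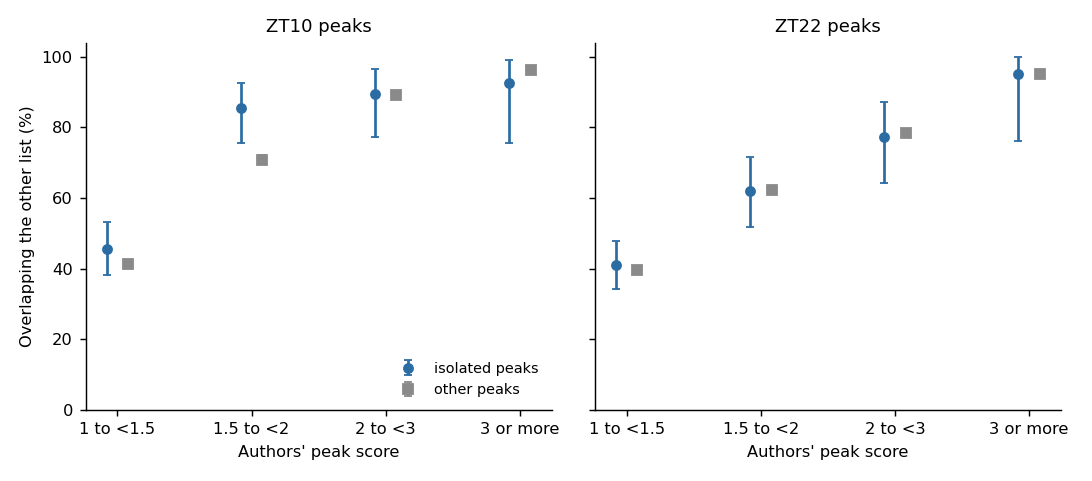
Share of peaks that overlap a peak of the other list (y axis, percent) by class of the authors' score (x axis), for ZT10 peaks on the left and ZT22 peaks on the right; points are shares and bars exact 95% intervals. Isolated and other peaks lie close together except among ZT10 peaks scoring 1.5 to below 2, at 85.5% against 70.9%.

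The scores fell mostly over short distances, before the 200 kb limit. Of regions with a neighbour within 5 kb, 39.5% (38.8 to 40.3) scored 2 or more in either list. The share was 32.9% for neighbours 5 to 20 kb away, 26.0% at 20 to 50 kb, 25.0% at 50 to 100 kb and 26.2% (23.1 to 29.5) at 100 to 200 kb. Isolated regions with a nearest neighbour at 200 to 300 kb gave 20.4% (15.1 to 26.5), those at 300 to 500 kb 18.0% (12.2 to 25.1) and those beyond 500 kb 22.9% (16.6 to 30.3). The intervals from 100 kb upward overlapped one another. Over all 513 isolated regions the share was 20.5% (17.1 to 24.2), and the 26.2% at 100 to 200 kb lay above that interval. Most of the difference from the 39.5% of regions within 5 kb of a neighbour was thus present at 20 to 50 kb.

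The share in both lists changed less with distance. It was 48.9% (48.1 to 49.7) with a neighbour within 5 kb and 42.9% (41.3 to 44.5) at 20 to 50 kb. At 100 to 200 kb it was 46.2% (42.6 to 49.8). Isolated regions gave 41.3%, 39.3% and 45.2% (37.3 to 53.4) in the same 3 steps as above. The last value came from 157 regions, of which 71 were in both lists.

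Regions on either side of the limit show how the choice was made. Just inside it, with the nearest neighbour at 200.1, 200.2 and 201.5 kb, lay a shared region of chromosome 7 at 120426267 to 120426472 (scores 1.6 at ZT10 and 1.8 at ZT22), one of chromosome 18 between 68817401 and 68817600 (3.0 and 2.7) and one of chromosome 4 between 6841358 and 6841592 (3.5 and 2.7). Just outside it, at 199.96, 199.2 and 198.8 kb, lay single-list regions on chromosome 2 at 114941478 to 114941677 (1.2, ZT10) and on chromosome 4 at 71884671 to 71884870 (1.3, ZT22) and 71126879 to 71127078 (1.0, ZT10). The lists and scores of these examples do not stand for the regions on their side. At 100 to 200 kb 46.2% were in both lists and 26.2% scored 2 or more. At 200 to 300 kb these shares were 41.3% and 20.4%.

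**Figure D3:**
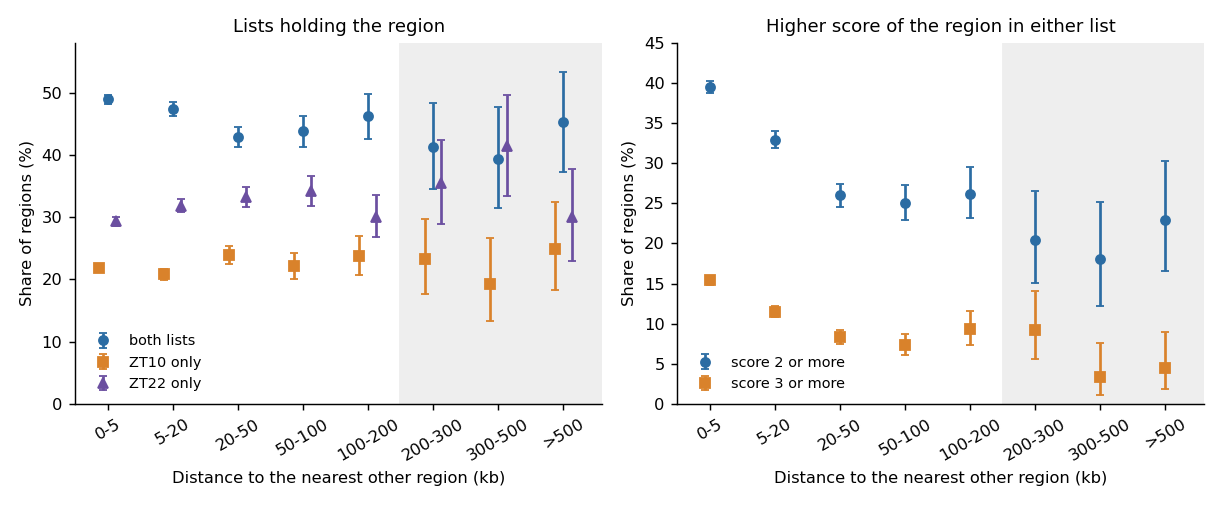
Share of autosomal regions (y axes, percent) by distance to the nearest other region (x axes, kb); grey marks the isolated regions, points are shares and bars exact 95% intervals. On the left the share in both lists stays between 39.3% and 48.9%, and on the right the share scoring 2 or more falls from 39.5% within 5 kb to 26.0% at 20 to 50 kb and is 18.0% to 22.9% among isolated regions.

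Where a region was isolated and shared, the peaks of the libraries were closely aligned. In 214 of the 215 shared regions each list had 1 peak, and the median distance between the centres was 20 bp (quartiles 8 and 40). In the other shared regions it was 19 bp (8 and 37). Centres lay within 50 bp of each other in 179 regions (83.6%), against 84.4% elsewhere. The median offset of isolated and other regions differed by 1 bp. The remaining region held more than 1 peak of a list and was 495 bp wide.

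Neither list had the higher score more often in the isolated shared regions. The ZT10 score was higher in 97, the ZT22 score in 97, and 20 were equal, so each list led in 45.3% (38.5 to 52.3). In other shared regions ZT10 led in 52.1% (51.3 to 52.9) and ZT22 in 39.4%. The value of 52.1% lies just inside the interval of the isolated regions. With the higher score below 2, ZT10 led in 40.8% (32.2 to 49.7) of 130 isolated regions and in 46.0% of other regions. At 2 or more these shares were 52.4% (41.2 to 63.4) of 84 and 56.1%, so in both classes the value of the other regions lay within the interval of the isolated ones. ZT22 led in 47.7% (38.9 to 56.6) of isolated regions below 2, against 40.4% of other regions. At 2 or more it led in 41.7% (31.0 to 52.9), against 38.6%. The scale of the score and the depth are unknown, so a higher score does not show more signal. Equal scores may likewise stand for unequal signal in the libraries.

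Across the 214 regions the scores of the lists had a Spearman rho of 0.69 and a Pearson r of 0.91, against 0.80 and 0.90 across the 14281 other shared regions. These are correlations across sites of the same 2 libraries, and both scores share the lower bound of 1.0. The scores differed by no more than 0.5 in 169 isolated regions (79.0%, 72.9 to 84.2), against 71.8% of other shared regions. At like score these shares were close, with 94.6% against 93.5% where the higher score was below 2 and 54.8% against 57.5% at 2 or more.

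Few isolated regions of 1 list had a score of 2 or more, and few of the other single-list regions did. The count was 7 of the 116 isolated ZT10-only regions (6.03%, 2.46 to 12.0), against 9.98% of other ZT10-only regions. It was 14 of the 182 isolated ZT22-only regions (7.69%, 4.27 to 12.6), against 14.0% of other ZT22-only regions. After the chromosome 3 region, the highest ZT10-only region was on chromosome 6, at 13821414 to 13821613, with a score of 3.0 and rank 3105. One on chromosome 8, between 70424399 and 70424598, scored 2.5, and one on chromosome 18, between 32980109 and 32980308, scored 2.4. The fifth, on chromosome 9 between 3258760 and 3258959, scored 2.2. It was the first region of its chromosome and so had a neighbour on 1 side only, 1042 kb away.

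The 5 ZT22-only regions with the highest scores spanned 3.0 to 2.3. Chromosome 6 held a pair of them, between 53054664 and 53054863 (3.0, rank 2854) and between 135973880 and 135974079 (2.6). The others lay on chromosome 3 between 75642713 and 75642912 (2.5), chromosome 9 between 104911243 and 104911442 (2.5) and chromosome 19 between 31148867 and 31149066 (2.3). Their nearest ZT10 peaks were 207 to 786 kb away.

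The other library could also be asked whether a site isolated in 1 list was there, and whether it was isolated there too. By ZT10 peaks alone, 592 autosomal regions were isolated, and 375 of them (63.3%, 59.3 to 67.2) overlapped a ZT22 peak, against 68.6% of ZT10 regions that were not isolated. By ZT22 peaks alone 598 were isolated, and 327 (54.7%, 50.6 to 58.7) overlapped a ZT10 peak, against 60.7%. At like score these shares were close again. Between 2 and 3, for example, 92.4% of ZT10-isolated regions (84.9 to 96.9) had a partner against 89.2%, and 81.8% of ZT22-isolated regions (72.2 to 89.2) against 78.3%. The class of ZT10 peaks from 1.5 to below 2 again stood apart, with 80.6% (73.1 to 86.7) against 70.8%.

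Sites that were both present and isolated in the other list were the shared isolated regions above, seen from either side. They made up 215 of the 592 ZT10-isolated regions (36.3%, 32.4 to 40.3) and 214 of the 598 ZT22-isolated regions (35.8%, 31.9 to 39.8). The closeness of these shares follows from counting the same sites over totals of like size, and is not a result. A partner with a further peak of the other list within 200 kb was found for 27.0% of the ZT10-isolated and 18.9% of the ZT22-isolated regions. No peak of the other list at the site or within 200 kb was found for 19.6% and 30.4%. The lists differ in length, and the part of this in those shares was not tested.

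Isolated regions had fewer SMRT regions around them also past the distance that defined them. Choosing regions with 200 kb empty on both sides favours sparse parts of the genome, so the zone beyond is not independent of the choice. The counts are a description. Between 200 kb and 1 Mb away, on both sides together, they had a median of 11 other regions (quartiles 3 and 20). The other autosomal regions had 32 (17 and 50), and those with the nearest neighbour at 100 to 200 kb had 20 (10 and 32). No region at all lay in that zone for 48 isolated regions (9.36%), against 0.591% of other regions. Shared and single-list isolated regions had like surroundings, with medians of 10 and 11. Individual isolated regions could still lie in dense surroundings: the strongest, on chromosome 10 at 121454984, had 28 regions in that zone, and the chromosome 19 region at 47935898 had 35.

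**Figure D4:**
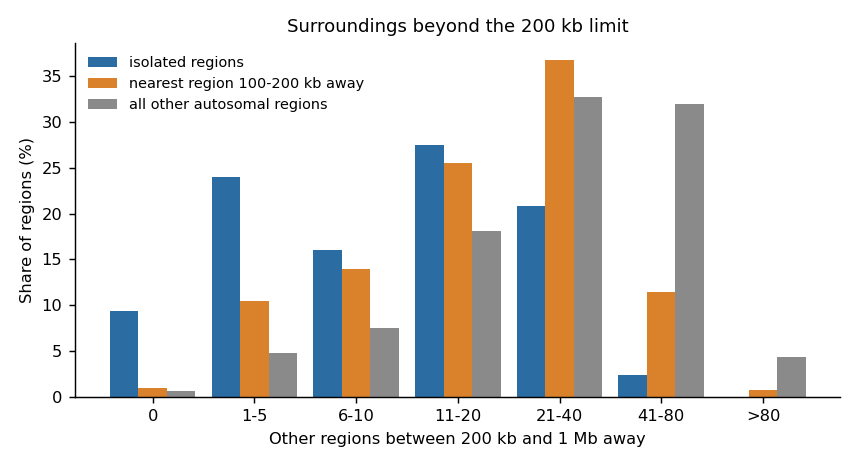
Distribution of regions (y axis, percent of each set) by the number of other regions lying between 200 kb and 1 Mb away (x axis), a zone beyond the limit of the choice but not independent of it. Bars of the isolated regions lie to the left, with 9.36% at 0, and those of all other autosomal regions to the right.

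The shorter gap of an isolated region had a median of 350 kb (quartiles 257 and 552), and the longer one, in the 507 regions with neighbours on both sides, 824 kb (481 and 1595). Gaps exceeded 500 kb on both sides in 153 regions, of which 70 were in both lists, and 1 Mb on both sides in 45. With regions at chromosome ends included, the share in both lists beyond 500 kb was 45.2% (37.3 to 53.4). The share of all autosomal regions, 47.3%, lay within that interval. 

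The widest empty surroundings belonged to a weak site. On chromosome 15 at 16437669 to 16437868, a ZT22-only peak with a score of 1.4 had gaps of 2647 kb and 8992 kb. Next came chromosome 3 at 44151310 to 44151544, shared with scores of 1.5 at ZT10 and 1.6 at ZT22, with gaps of 1645 kb and 6927 kb. On chromosome 5 a pair of shared isolated regions bounded 1 gap of 7688 kb: that at 54644449 to 54644663 scored 3.1 and 3.0, and that at 62332187 to 62332406 scored 1.2 and 1.7. The fifth, on chromosome 12 at 45867282 to 45867481, was ZT22-only with a score of 1.4 and had a gap of 6328 kb to its right. Whether such gaps hold sequence to which reads could be placed was not tested.

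Some isolated regions followed one another along the chromosome. In 242 of them (47.2%) the adjacent region on at least 1 side was isolated too, which made 103 runs. The region next to an isolated one already has a gap of more than 200 kb on 1 side by the definition itself. This share is therefore a description and not a finding. The runs named were chosen after their values were seen. The run with most members lay on chromosome 13 from 116716289 to 119506664 and strung 5 isolated regions over 2.79 Mb, with 2 in both lists and no score above 1.9. A run of 4 on chromosome 5 from 54644449 to 62911297 spanned more, 8.27 Mb. Also on chromosome 13, from 71057626 to 73506005, 4 isolated regions in a row were all in both lists, with higher scores of 1.6 to 2.0. On chromosome 8 from 7060368 to 9500988, by contrast, none of 4 in a row was in both lists, and the scores were 1.1 to 1.6. Isolated regions were found in 307 of the 490 windows of 5 Mb that held any region, and 13 windows held 4 or more.

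Chromosome 3 had the most isolated regions and chromosome 11 the smallest share. On chromosome 3, 51 of 1561 regions were isolated (3.27%, 2.44 to 4.27), followed by chromosome 18 with 24 of 892 (2.69%, 1.73 to 3.98). On chromosome 11 there were 15 of 2391 (0.627%, 0.352 to 1.03), and on chromosome 17, 12 of 1381 (0.869%). Chromosome 11 also had the most regions per Mb, 20.2, against 10.2 on chromosome 3. A denser chromosome leaves less room for an isolated region by the definition itself, and across the 19 autosomes regions per Mb and isolated regions per 100 Mb had a Spearman rho of -0.55 and a Pearson r of -0.54. Chromosome 19 was dense too, with 18.7 regions per Mb, yet had 20.8 isolated regions per 100 Mb, against 12.6 on chromosome 11.

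The share in both lists varied between chromosomes within wide intervals. It was highest on chromosome 12, with 13 of 22 (59.1%, 36.4 to 79.3), and lowest on chromosome 14, with 6 of 27 (22.2%, 8.62 to 42.3). The intervals of chromosomes 12 and 14 overlapped. Among single-list isolated regions, ZT10 made up 1 of 9 on chromosome 12 (11.1%, 0.281 to 48.2) and 2 of 14 on chromosome 10 (14.3%, 1.78 to 42.8), against 43.6% and 42.2% of the other single-list regions there. On chromosome 18 it was 7 of 11 (63.6%, 30.8 to 89.1), against 39.5%. These 3 chromosomes were picked after their values were seen, and each value of the other regions lay within the interval of the isolated ones. The highest score on a chromosome ranged from 2.3 on chromosome 14 to 9.3 on chromosome 10.

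**Figure D5:**
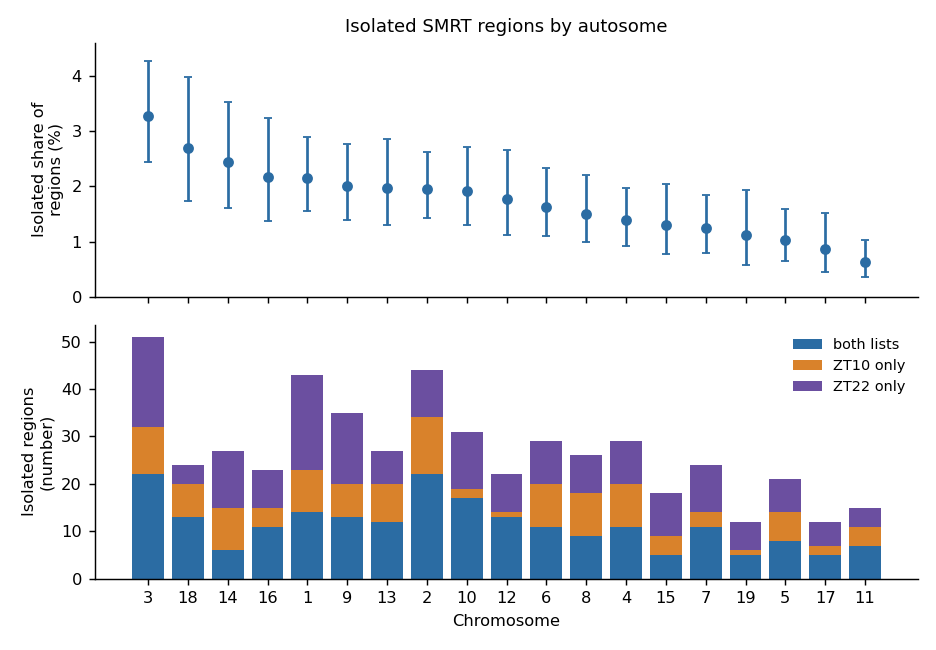
Isolated regions by autosome, ordered by share: above, percent of the chromosome's regions that were isolated with exact 95% intervals; below, the number of isolated regions in both lists, in ZT10 only and in ZT22 only. The share falls from 3.27% on chromosome 3 to 0.627% on chromosome 11.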

How the data were processed

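SMRT chromatin immunoprecipitation sequencing of mouse liver gave 1 deposited peak list for each of ZT10 and ZT22. Per the submitters' processing notes, HOMER and build mm8 were used; the sources used here do not name the aligner, calling settings, an input control or read numbers, and depth is unknown. The authors deposited a score for each peak, with 1 decimal, and peak positions. Per the labels' design text, the material of 4 mice was pooled for each library. Lists were assigned by their sample labels.

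Peaks overlapping by 1 bp were merged, and autosomal regions more than 200 kb from any other were kept. Of these, 6 were first or last on their chromosome and were judged by 1 side. bedtools 2.31.1 gave the same 30845 regions and 513 isolated ones, and the code recovered all 581 isolated regions of simulated lists. Shares carry exact Clopper-Pearson 95% intervals, and no difference between times was tested. Named were the 10 highest scores, the 5 highest of each single list, the 5 widest total gaps, and 3 regions on either side of the limit. Members, lists and classes were chosen with earlier results of these data known. Score classes, single-list isolation by score, runs named and the zone of 200 kb to 1 Mb were chosen after the files were seen. The gene tables at hand are of GRCm38 and were not used. Intervals used SciPy 1.17.1 under Python 3.11.15, tables pandas 2.3.3 and plots matplotlib 3.10.9.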

Additional observations from a re-analysis of the deposited data

Results flagged for a closer look

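Chromosome X was outside the comparisons above but held isolated regions by the same distance, 46 of its 189 regions (24.3%, 18.4 to 31.1). Of the 46, 22 were in both lists (47.8%), 17 in the ZT10 list only (37.0%, 23.2 to 52.5) and 7 in the ZT22 list only (15.2%, 6.34 to 28.9). Over all 189 X regions these shares were 43.9%, 37.0% and 19.0%, and the X-wide shares of each single list lay within the intervals of the isolated regions. Median scores were 1.4 in each list. All mice were male, and copy number was not adjusted for.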

How the results depend on the processing

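Of 65 alternative values, 47 stayed within 1.5 times the reported number or within its 95% interval. The number of isolated regions, 513, was 1284 at 100 kb and 157 at 500 kb. Peaks scoring 1.5 or more gave 47.6% in both lists and 30.3% in ZT22 only, against 52.7% and 25.5% of all autosomal regions so built, with median scores of 2.0 at ZT10 and 2.0 at ZT22 and 50.2% reaching 2, against 59.0% of all. Peaks scoring 2 or more gave 53.2% and 25.4%, against 55.6% and 22.2%, with medians of 2.5 and 2.5. At that score the background lay within the interval of the isolated share in both lists (49.6 to 56.8). At 500 kb, 29.9% were in ZT22 only. Isolation set by the ZT10 list alone gave 63.3% in both lists, 36.7% in ZT10 only and 27.7% scoring 2 or more; set by the ZT22 list alone it gave 54.7% in both, 45.3% in ZT22 only and 26.3%. These shares have no regions of the other list alone in their denominator. For the same reason the share and the median score of the other list have no value there, and the share scoring 2 or more is fixed once weaker peaks are removed. For isolation set by a single list, the share of all its regions scoring 2 or more was not computed. The 27.7% and 26.3% thus have no background here. No paired analysis was possible because there is a single pooled library per time, so leaving one out was not possible either. With depth unknown, absence of a weak peak from a list does not show absence of binding.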
